A study of Mus musculus with 24 samples.

Results

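The visceral endoderm genes described here are 9 genes taken by name, 6 for secreted proteins (Afp, Ttr, Rbp4, Apob, Apoa1 and Apom) and 3 for protein uptake (Cubn, Amn and Dab2). They are 9 of 20660 genes named on the array and are read by 11 of its 55681 probes. Apob and Cubn had 2 probes each and the other 7 genes 1 each. The visceral endoderm is the outer cell layer that wraps the epiblast of the early mouse embryo. It feeds the embryo before there is a placenta or liver: it takes up maternal proteins through a brush border rich in endocytic receptors and secretes serum proteins, carrier proteins and lipoproteins. Its derivatives and the later liver share many of these genes, under transcription factors of the Gata, Foxa and Hnf families.

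RNA was measured on 24 single-colour arrays, 2 for each of 12 groups. The embryonic groups were epiblast dissected by hand at E5.5 and at E6.5, and embryonic ectoderm at E7.5. Epiblast stem cells (EpiSCs) are pluripotent lines from the postimplantation epiblast; lines Wt1 and 129C1 had been made by the original protocol, and a Wnt inhibitor had been used to make lines 129Ba1, 129Ba2 and BNa17. A further group was 129C1 treated with IWP2, which blocks the secretion of Wnt proteins. Mouse embryonic stem cells (mESCs) of lines J1 and R1 were grown in conventional medium, and J1 also with 2i, a pair of inhibitors of Mek and Gsk3. All lines were kept undifferentiated on feeder cells and were separated from them before RNA was taken. Each line stands for itself, since no genotype, strain or medium beyond these was used here. Whether the arrays of a group stem from independent cultures or dissections is not labelled, and p-values may thus measure technical spread only. How the visceral endoderm was taken off the epiblast is not labelled either.

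Levels below are log2 processed signals relative to the 75th percentile of the same array, so that 0 is the signal of a probe at that percentile. They compare arrays for 1 gene, not 1 gene with another. The percentile itself ranged from 69.3 on BNa17 replicate 1, a dim array, to 253 on E6.5 replicate 1. Between 36.7% and 53.2% of probes were well above background by the scanner software's own test, and replicate arrays correlated at r of 0.966 to 0.989. Differences are tested with limma over all genes, with adjusted p below 0.05 (Benjamini-Hochberg) and at least 2-fold needed for a call. Errors are standard errors. Of 7 genes of the epiblast and primed pluripotency list, all 7 were well above background on both arrays of each group, stem cells and tissues alike. Fibroblast and feeder genes had a summed level of 63.9 to 392 on the arrays of the cell lines and 6.92 to 16.2 on those of the tissues.

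For 8 of the 9 genes the group with the highest mean level was E5.5 or E6.5 epiblast. Rbp4 was highest in EpiSCs, with means of 3.33 in 129C1 and 2.63 in Wt1 against 2.33 at E5.5 and 2.11 at E6.5. Each gene was well above background on all 4 arrays of E5.5 and E6.5, and for 6 of them (Afp, Ttr, Apob, Apoa1, Cubn and Amn) each of these 4 arrays lay above all 20 others. Afp and Ttr were well above background on none of those 20 arrays. For Rbp4, Apom and Dab2, levels in some cell lines lay within the epiblast range. In bulk RNA, fewer cells of a type and less RNA per cell cannot be told apart.

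**Figure D1:**
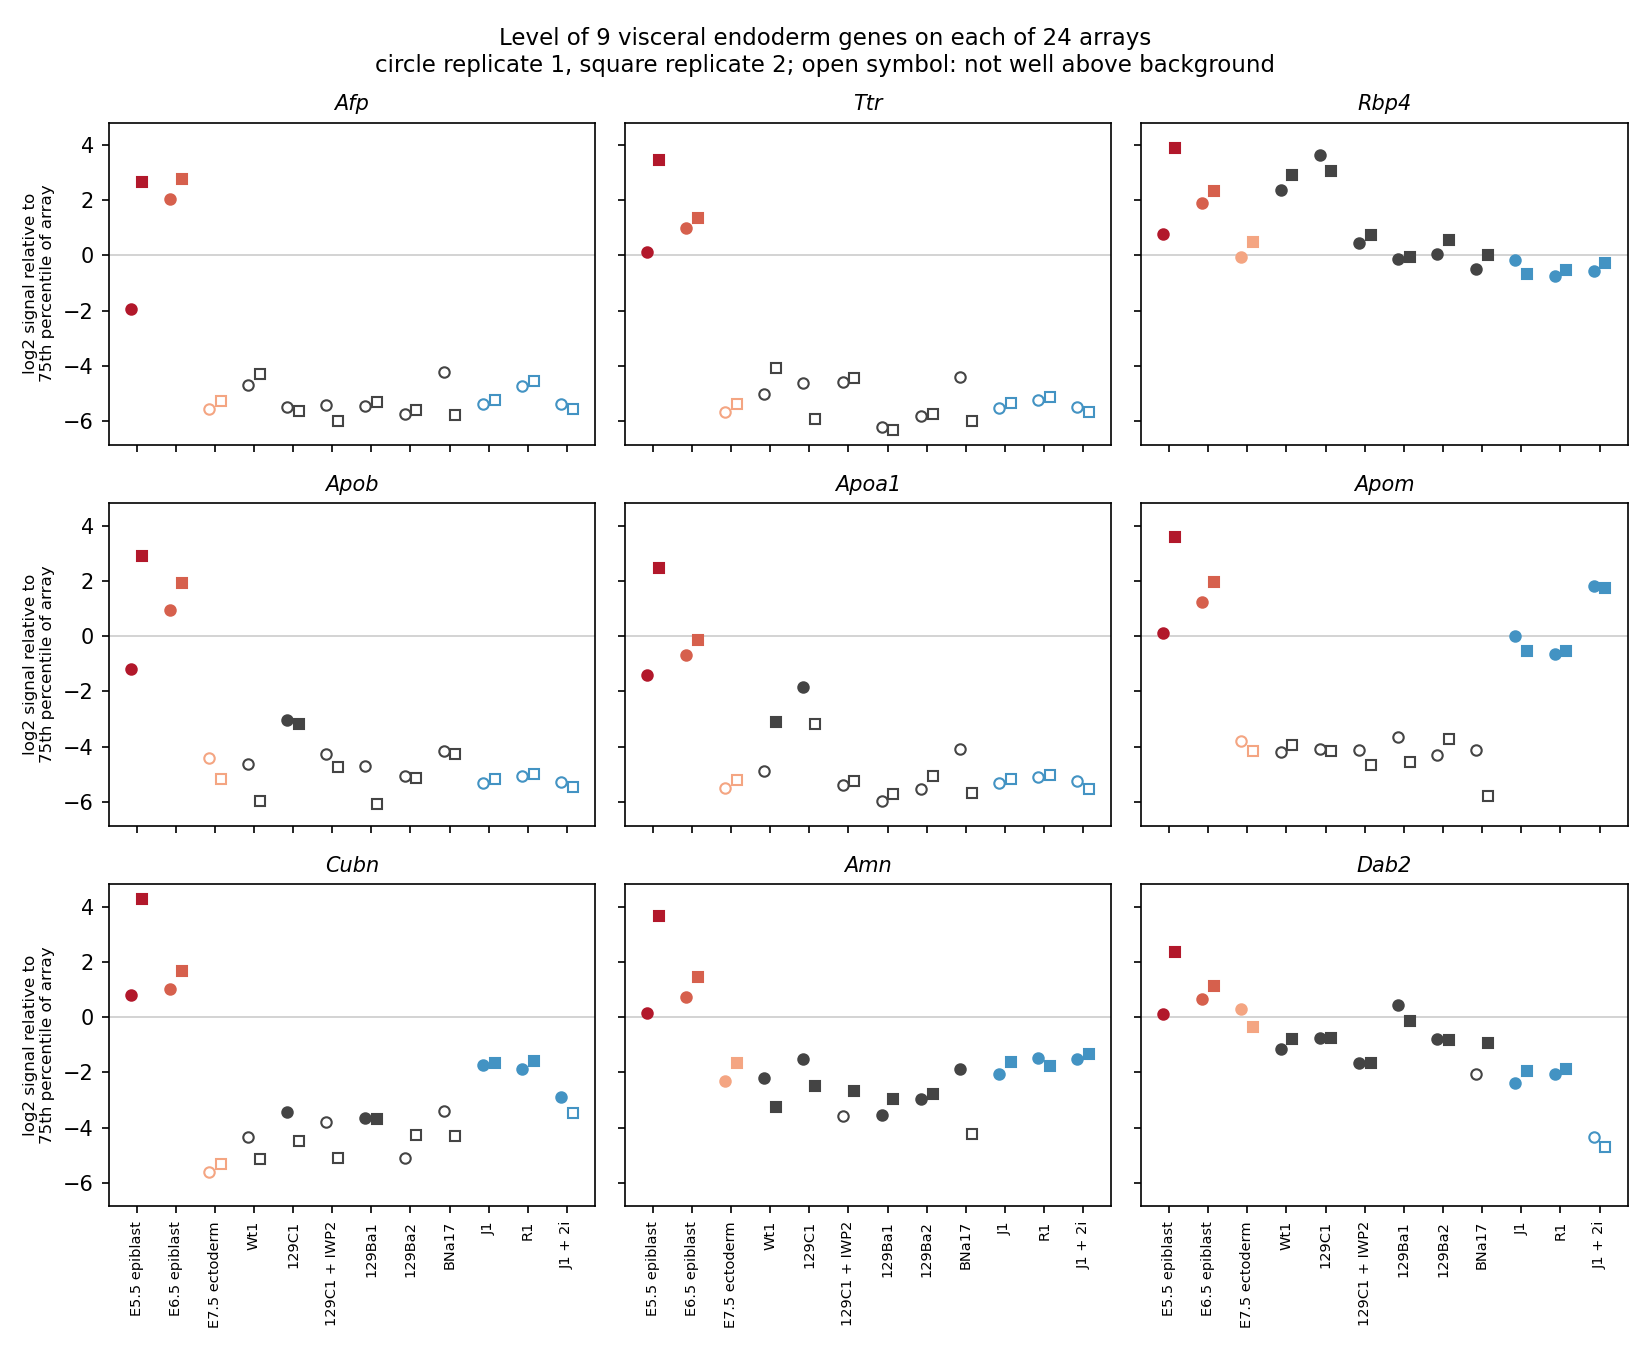
Log2 signal of each gene relative to the 75th percentile of its array (vertical axis), for the 2 arrays of each of 12 groups (horizontal axis). Circles are replicate 1 and squares replicate 2, and open symbols were not well above background; tissues are red, EpiSC groups black and mESC groups blue. Afp and Ttr have filled symbols only at E5.5 and E6.5, Rbp4 has filled symbols everywhere.

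Afp encodes alpha-fetoprotein, the main serum protein of the visceral endoderm. Its level was -1.92 and 2.66 on the arrays of E5.5 epiblast and 2.06 and 2.78 on those of E6.5. On the other 20 arrays it lay between -5.99 and -4.21, all at background. Ttr, transthyretin, carries thyroid hormone and binds the retinol carrier Rbp4. It was at 0.12 and 3.44 at E5.5 and at 0.99 and 1.35 at E6.5, and between -6.32 and -4.08, at background, elsewhere.

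Apob, the structural protein of the lipoproteins that export lipid, was at -1.19 and 2.92 at E5.5 and at 0.94 and 1.92 at E6.5. Outside these groups it was well above background only on the arrays of 129C1, at -3.03 and -3.18. Its second probe followed the same order at E5.5 (-3.19 and 0.58) and E6.5 (mean -1.72) but was at background in 129C1. Apoa1, the main protein of high-density lipoprotein, was at -1.40 and 2.47 at E5.5 and at -0.67 and -0.14 at E6.5. It was above background on 1 array of 129C1 (-1.83) and 1 of Wt1 (-3.12) and on no other array outside the epiblast. Apom, a small apolipoprotein, was at 0.11 and 3.59 at E5.5 and at 1.22 and 1.98 at E6.5, and it was also present in mESCs, as described further on.

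Cubn, Amn and Dab2 belong to the uptake machinery. Cubilin, a large receptor without a membrane anchor, needs amnionless (Amn) to reach the surface, and Dab2 is an adaptor that links receptors of this kind to clathrin. Cubn was at 0.80 and 4.28 at E5.5 and at 1.02 and 1.68 at E6.5. The second Cubn probe was well above background on only 2 arrays of the study, E5.5 replicate 2 at 0.29 and E6.5 replicate 2 at -3.31, so the levels of Cubn here rest on the brighter probe. Amn was at 0.16 and 3.67 at E5.5 and at 0.75 and 1.46 at E6.5. Dab2 was at 0.12 and 2.34 at E5.5 and at 0.67 and 1.14 at E6.5, the narrowest range of the 9 genes on these arrays.

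The promoters of the 4 secreted genes whose windows held the forkhead letters named after the sequences are shown, from the RefSeq table of GRCm38.p6; 8 of the 9 genes had entries there, with 10 windows. Each window runs 5′ to 3′ on the gene's strand from 250 bases before the start of transcription to 50 after it. The windows are Afp at chr5:90490464-90490763 (plus strand), Apoa1 at chr9:46228380-46228679 (plus), Apob at chr12:7977427-7977726 (plus) and the first of the 2 Rbp4 windows at chr19:38125272-38125571 (minus). Capitals mark letters found by a search of both strands for 6 short motifs, spelled out after the sequences.
Afp: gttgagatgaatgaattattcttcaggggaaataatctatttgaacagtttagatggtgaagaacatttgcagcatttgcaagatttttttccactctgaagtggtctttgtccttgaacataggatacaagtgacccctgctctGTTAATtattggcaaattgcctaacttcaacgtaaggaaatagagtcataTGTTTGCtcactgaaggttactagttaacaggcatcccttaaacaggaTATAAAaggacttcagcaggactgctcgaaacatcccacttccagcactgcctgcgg
Apoa1: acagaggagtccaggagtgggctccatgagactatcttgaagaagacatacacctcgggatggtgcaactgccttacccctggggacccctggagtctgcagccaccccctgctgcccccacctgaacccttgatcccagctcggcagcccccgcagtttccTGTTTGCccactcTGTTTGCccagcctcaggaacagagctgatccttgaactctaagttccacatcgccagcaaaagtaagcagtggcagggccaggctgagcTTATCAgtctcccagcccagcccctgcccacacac
Apob: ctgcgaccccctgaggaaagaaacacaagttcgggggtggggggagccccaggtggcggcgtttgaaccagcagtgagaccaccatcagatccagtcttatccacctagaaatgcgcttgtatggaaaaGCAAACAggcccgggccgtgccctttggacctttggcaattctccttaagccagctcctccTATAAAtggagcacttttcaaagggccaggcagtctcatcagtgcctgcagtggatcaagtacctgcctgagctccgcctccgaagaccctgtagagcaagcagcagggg
Rbp4: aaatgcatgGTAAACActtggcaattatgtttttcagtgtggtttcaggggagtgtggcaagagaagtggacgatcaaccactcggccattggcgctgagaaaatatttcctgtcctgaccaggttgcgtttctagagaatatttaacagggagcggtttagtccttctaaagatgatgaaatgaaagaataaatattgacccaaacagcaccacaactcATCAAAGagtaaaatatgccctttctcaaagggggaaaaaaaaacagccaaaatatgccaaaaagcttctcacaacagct
The forkhead letters of the Foxa family were TGTTTAC, or the variant TGTTTGC. They occurred in 4 of the 10 windows, those of Afp, Apoa1 and Apob and the first of Rbp4, and in 8.48% of all 32851. Apoa1 held the forkhead letters at 2 places. The HNF1 letters, GTTAAT, occurred in 2 of the 10 windows, of Afp and Dab2, and in 7.10% of all windows. The GATA factor letters were AGATAA, with the variant TGATAA. They were in 2 of the 10 windows, of Apoa1 and Dab2, and in 18.6% of all. The TCF/LEF letters, CTTTGAT, were in 2 of the 10 windows, of Cubn and the first of Rbp4, and in 3.73% of all. The letters TATAAA were in 3 of the 10 windows and in 13.6% of all. These were windows of Afp and Apob and the second of Rbp4, which is not shown. The HNF4 letters, CAAAGTC, were in none of the 10 windows and in 4.44% of all. A match describes letters in the window and shows no binding.

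For these genes the arrays of E5.5 epiblast differed widely from each other. All 9 genes were higher on E5.5 replicate 2 than on replicate 1, by a log2 of 2.23 (Dab2) to 4.58 (Afp), with a median of 3.48. Over the 12562 genes well above background on both arrays the median was -0.14, and 75 genes, or 0.597%, were higher by more than 2. At E6.5 all 9 genes were also higher on replicate 2, by 0.36 to 0.97. For 8 of the 9 genes both E6.5 arrays lay between the E5.5 arrays; Afp was the exception, with 1 E6.5 array above both.

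**Figure D2:**
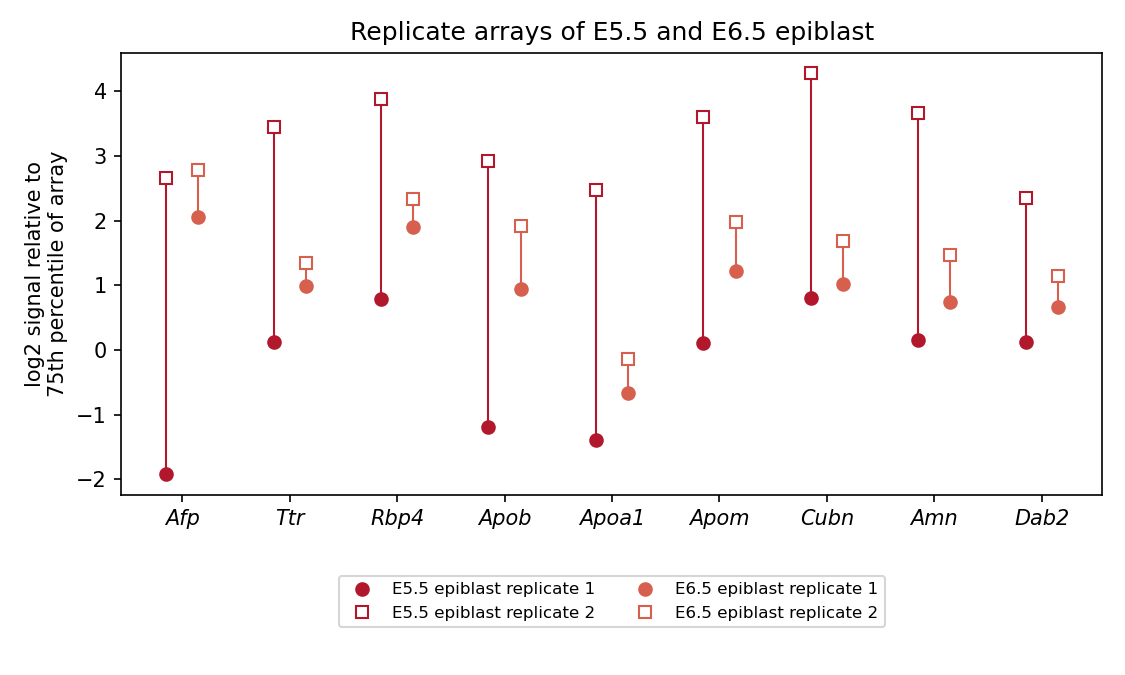
Log2 signal relative to the 75th percentile of the array (vertical axis) for each gene (horizontal axis) on the 2 arrays of E5.5 epiblast and of E6.5 epiblast, joined by a line. The E5.5 arrays lie 2.23 to 4.58 apart and the E6.5 arrays 0.36 to 0.97 apart.

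Of the genes well above background on both E5.5 arrays, 7 of 7 transcription factors of the visceral endoderm and 11 of 12 other secreted and lipid transport genes were higher on replicate 2, with medians of 2.27 and 1.06 on the log2 scale. Other endoderm lists, which share some genes, shifted too. Parietal endoderm genes were higher in 7 of 7 (median 1.34), anterior visceral endoderm genes in 6 of 7 (1.65) and definitive endoderm genes in 6 of 8 (1.37). The other endocytosis and brush border genes were higher in 8 of 13, with a median of 0.22, and the epiblast genes in 1 of 7 (median -0.21). Summed levels add linear signals over probes and are carried by the brightest of them. The 12 transcription factors of the layer had a summed level of 6.40 on replicate 1 and 35.9 on replicate 2. The other 17 secreted and lipid transport genes on the array summed to 73.9 and 193, and the 7 epiblast genes to 1467 and 1373. Extraembryonic ectoderm and trophoblast genes summed to 18.0 and 12.9, and fibroblast genes to 7.56 and 7.25. The part of a differing share of visceral endoderm in this gap was not tested. The gap widens the spread that all 12 groups share for these genes, and calls made elsewhere when E5.5 replicate 2 is left out of that spread are given beside the results.

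Between E5.5 and E6.5 epiblast none of the 9 genes was called, and their ranges overlapped for each gene. In this comparison 4.86% of all tested genes were called by limma, and of the 9 genes 1, Afp, had an unadjusted p below 0.05. The log2 difference, E6.5 minus E5.5, ran from -1.19 ± 0.79 for Cubn to 2.05 ± 0.92 for Afp (adjusted p 0.421 and 0.203, limma). The outcome turned on which E5.5 array was kept. Without replicate 1 the log2 difference was negative for every gene, from -2.93 for Cubn to -0.24 for Afp. Without replicate 2 it was positive for every gene, from 0.55 for Cubn to 4.34 for Afp. Each of these runs sets 1 E5.5 array, with no spread of its own, against E6.5.

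At E7.5, Afp, Ttr, Apob, Apoa1, Apom and Cubn were at background on both arrays of the embryonic ectoderm, at -5.67 to -3.80, and the ranges of E6.5 and E7.5 did not overlap for any of the 9 genes. Between E7.5 ectoderm and E6.5 epiblast, 8 of 9 genes were called lower. Of all tested genes 14.9% were called and 8.56% were called lower. Stage, tissue, slide and scan day differ together in this comparison.

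Because E7.5 gives only a bound for the 6 genes at background, their folds are lower limits, set against the lowest signal called well above background. Afp was at least 52.1-fold lower at E7.5 (adjusted p 3.7e-05, limma), Apom at least 29.5-fold, Apob at least 26.3-fold, Cubn at least 24.9-fold, Ttr at least 21.9-fold and Apoa1 at least 7.38-fold. Apoa1 had the largest adjusted p of these, 0.0011. For Apob the second probe also passed, at least 2.97-fold lower (adjusted p 0.0132). Amn stayed above background, at -2.32 and -1.66, and was lower, with a log2 difference of -3.10 ± 0.88 (adjusted p 0.0173). Rbp4 was at -0.04 and 0.48 at E7.5, lower, with a difference of -1.90 ± 0.64 (adjusted p 0.0387). Dab2, at 0.29 and -0.37, missed the threshold, with a log2 difference of -0.94 ± 0.52 (adjusted p 0.198). The call for Rbp4 was lost when any 1 of the 4 arrays was left out (adjusted p 0.0736 to 0.191), and that for Amn without E6.5 replicate 2 or E7.5 replicate 1.

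Other genes of the layer were split by role. Of 15 tested secreted and lipid transport genes, 8 were lower at E7.5 and 1, Stra6, was higher, with a median log2 difference of -2.29 against -0.07 over all genes. Among those lower were Spink1 (at least 490-fold), Ambp (at least 3.09-fold), Fgb and Fgg (at least 3.02-fold and 2.60-fold) and Trf (log2 -2.68 ± 0.54, adjusted p 0.0023). Of 10 tested transcription factors of the layer, 8 were lower, with a median of -2.40: Gata4, Gata6, Sox17, Foxa1, Foxa2, Foxa3, Hnf4a and Hhex. Of 13 tested endocytosis and brush border genes (median -0.17), 2 were lower, the brush-border protein Vil1 (at least 8.97-fold) and the folate receptor Folr1 (log2 -2.70 ± 0.30), and Lrp2, the megalin receptor that works with cubilin, was higher by 1.70 ± 0.34 (adjusted p 0.0022). The summed level of the visceral endoderm transcription factors was 25.0 and 31.2 at E6.5 and 5.68 and 14.1 at E7.5; their part in the result was not tested.

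**Figure D3:**
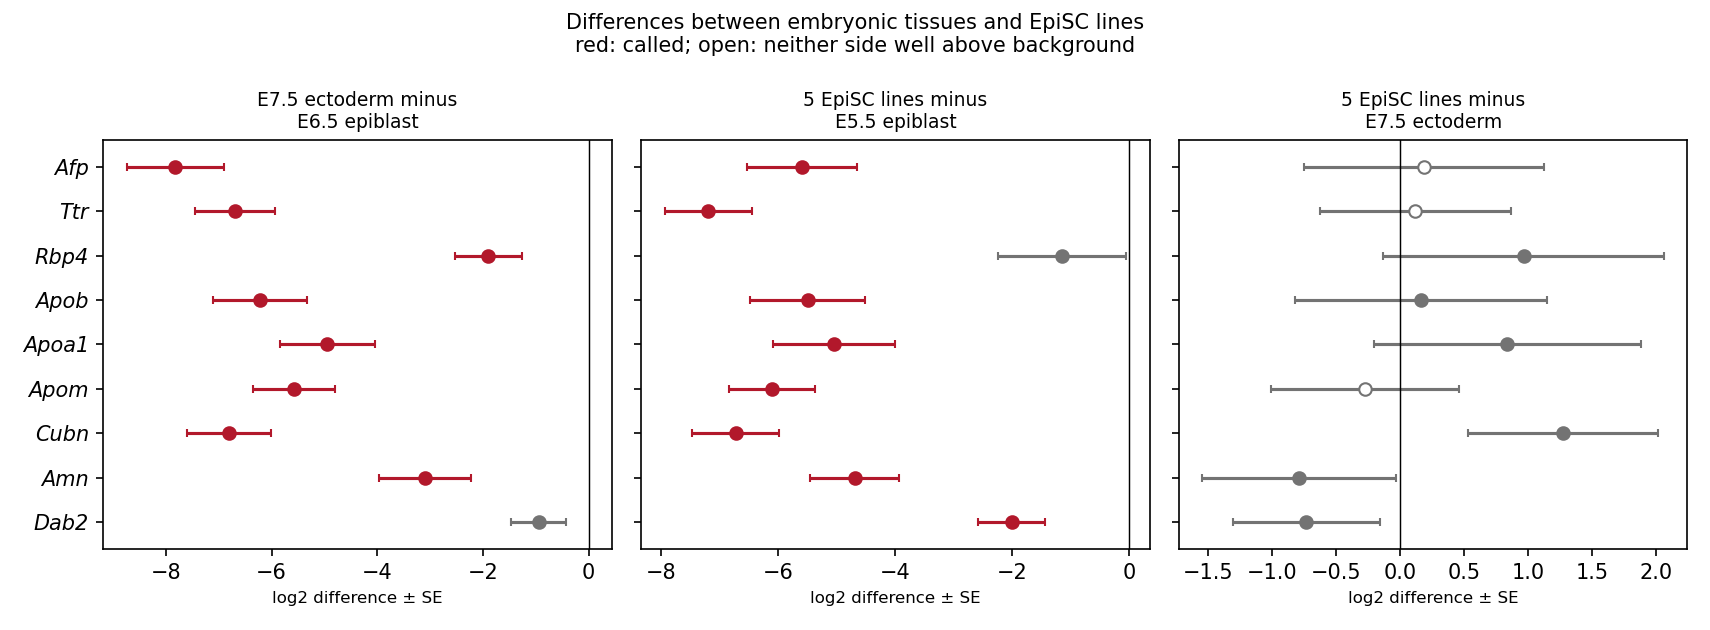
Log2 difference with its standard error (horizontal axis) for each gene (vertical axis) in E7.5 ectoderm against E6.5 epiblast, and in 5 EpiSC lines against E5.5 epiblast and E7.5 ectoderm. Red points were called and open points had neither side well above background; 8, 8 and 0 genes are red.

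The EpiSC lines, each taken as the mean of its 2 arrays, lay far below E5.5 epiblast. Lines and tissues lay on different slides, scanned on different days. Of the 9 genes, 8 were called lower and 0 higher; over all genes 24.1% were called and 9.39% were called lower. Ttr was at least 41.6-fold lower in the lines (adjusted p 0.0001, limma), Apom at least 42.5-fold and Afp at least 15.6-fold. These limits start from the mean of the 2 E5.5 arrays. They would be smaller from E5.5 replicate 1 alone, at 0.12 for Ttr, 0.11 for Apom and -1.92 for Afp. Leaving out 1 array or line moved the fitted log2 difference between -8.85 and -5.53 for Ttr, -7.84 and -4.36 for Apom and -7.88 and -3.29 for Afp. Such fitted differences use the background values of the lines and are not limits. Of the 10 arrays of the lines, Cubn was well above background on 3 and Apob and Apoa1 on 2 each, so their fitted differences are set against values mostly at background. The log2 difference, lines minus E5.5, was -6.72 ± 0.74 for Cubn, -5.49 ± 0.99 for Apob, -5.05 ± 1.04 for Apoa1, -4.69 ± 0.76 for Amn and -2.01 ± 0.57 for Dab2. Rbp4 was not called (-1.15 ± 1.1, adjusted p 0.432), and its ranges overlapped. Without E5.5 replicate 2, 6 genes remained called: Apoa1 (adjusted p 0.0600) and Dab2 (0.255) were not. Of the fibroblast and feeder genes, 10 of 10 were higher in the lines than in E5.5 epiblast, with a median log2 difference of 5.79; their part in the result was not tested.

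Against E7.5 ectoderm the lines showed no call among the 9 genes, although 17.6% of all tested genes were called. By unadjusted p 0 of 9 was below 0.05 too. The log2 difference, lines minus E7.5, ran from -0.79 ± 0.76 for Amn to 1.27 ± 0.74 for Cubn. Afp, Ttr and Apom were at background on both sides and cannot be ordered. When E5.5 replicate 2 was left out of the shared spread, Cubn was called higher in the lines (adjusted p 0.0281). Cubn was at background on both E7.5 arrays and on most arrays of the lines, so this difference is mostly between background values. The smallest Cubn difference among the alternatives was 0.22.

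Rbp4 differed between the EpiSC lines. It is the serum carrier that takes retinol to cells. It was high in the original-protocol lines, at 2.35 and 2.91 in Wt1 and at 3.63 and 3.04 in 129C1. In the lines made with a Wnt inhibitor it was at -0.15 and -0.07 (129Ba1), 0.04 and 0.54 (129Ba2) and -0.51 and 0.02 (BNa17). In 129C1 treated with IWP2 it was at 0.45 and 0.73. The arrays of the untreated original-protocol lines lay above all arrays of the inhibitor-made or treated cells, and reached the range of E5.5 and E6.5 epiblast.

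With the line as replicate, 3 against 2, Rbp4 was lower in the Wnt inhibitor lines, with a log2 difference of -3.0 ± 0.30 or 0.125 of the level (adjusted p 0.0184, limma). It was the 1 gene called among the 5 members tested, and 1.58% of all tested genes were called (1.04% lower). The call was lost without 129Ba1, without 129Ba2 or without BNa17 (adjusted p up to 0.0884), while the difference stayed between -3.35 and -2.65. On the slide that holds these 3 lines and 129C1, with arrays as replicates, Rbp4 was again lower (-3.35 ± 0.52, adjusted p 0.0003) and Apoa1 was called as well, at least 2.02-fold lower. There 11.2% of all tested genes were called and 5.34% were called lower. Apoa1 rests on 129C1 replicate 1, without which its adjusted p was 0.165, and with normexp background correction it was not called (-0.51, adjusted p 0.437). Apob was not called there (-1.80 ± 0.72, adjusted p 0.0806), but was with E5.5 replicate 2 left out of the shared spread (adjusted p 0.0034). The second Apob probe was at background on all of these arrays, with a fitted difference of -0.92 ± 0.77.

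IWP2 treatment of 129C1 went with an Rbp4 level of 0.149 of the untreated one, a log2 difference of -2.74 ± 0.64 (adjusted p 0.0184, limma). This was 1 call among 9 members, where 3.88% of all tested genes were called and 2.49% were called lower. Of the 9, Afp, Ttr and Apom were at background on all 4 arrays, so their differences could not be measured. Leaving out any 1 of the 4 arrays ended the call, with adjusted p between 0.0566 and 0.157 and a difference between -3.03 and -2.45. Treated 129C1 and untreated 129C1 lay on different slides. Against Wt1, which shared its slide but is another line, treated 129C1 had less Rbp4 (-2.04 ± 0.64, adjusted p 0.0317), where 13.9% of all tested genes were called and 8.01% were called lower. That call was likewise lost without any 1 of the 4 arrays. With E5.5 replicate 2 left out of the shared spread Afp also passed there (adjusted p 0.0328), but it was at background on all 4 arrays. The apolipoproteins Apoa1 (-2.81 ± 0.89, adjusted p 0.0917) and Apob (-1.40 ± 0.88, adjusted p 0.471) missed the threshold under IWP2, although the treated and untreated arrays did not overlap for either. With E5.5 replicate 2 left out of the shared spread, Apoa1 was called under IWP2 (adjusted p 0.0076). It was well above background on only 1 of the 4 arrays, and its smallest difference among the alternatives was -0.43. Cubn, Amn and Dab2 were not called in these comparisons, with log2 differences under IWP2 of -0.48 ± 0.79, -1.14 ± 0.88 and -0.90 ± 0.52.

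**Figure D4:**
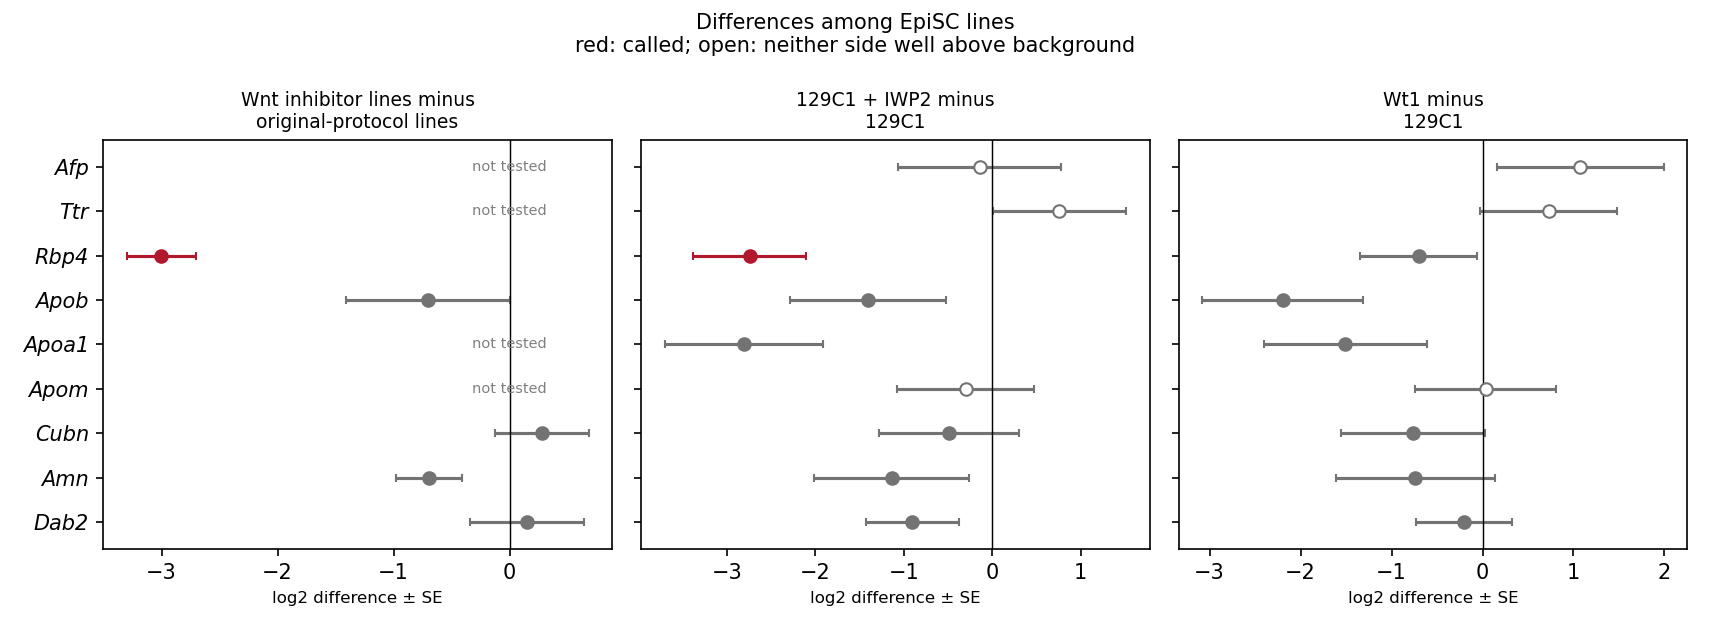
Log2 difference with its standard error (horizontal axis) for each gene (vertical axis) between Wnt inhibitor lines and original-protocol lines, between 129C1 with and without IWP2, and between Wt1 and 129C1. Rbp4 is red, that is called, in the first 2 panels, and no gene is red in the third.

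Between the original-protocol lines, Wt1 and 129C1, none of the 9 genes was called, where 10.6% of all tested genes were, and by unadjusted p Apob alone was below 0.05. Of the 9, Afp, Ttr and Apom were at background in both lines, so their differences could not be measured. Apob was at background in Wt1 and above it in 129C1, with a fitted log2 difference of -2.20 ± 0.88 (adjusted p 0.0975). It was called when E5.5 replicate 2 was left out of the shared spread (adjusted p 0.0047). The second Apob probe was at background in both lines, with a fitted difference of -0.36 ± 0.95 and overlapping ranges. Wt1 and 129C1 lay on different slides.

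Most transcription factors of the endoderm list were present in the original-protocol lines, while Afp, Ttr and Apom of the 9 genes were not. Rbp4, Amn and Dab2 were well above background on both arrays of each line, and Apob on both of 129C1. Apoa1 passed on 1 array of each line and Cubn on 1 of 129C1. Of 12 on the list, 8 were well above background on both arrays of Wt1 and 9 on both of 129C1, against 1 or 2 in each Wnt inhibitor line and 1 in treated 129C1. Foxa2 was at 3.78 and 4.65 in Wt1 and at 4.37 and 3.98 in 129C1, and at 3.97 and 4.10 in E6.5 epiblast. Gata4, at 0.06 and 0.65 in Wt1 and 0.77 and 0.57 in 129C1, overlapped its E6.5 range of -0.36 to 0.46 in Wt1. Of 10 tested factors, 7 were lower with IWP2, with a median log2 difference of -5.31 against -0.02 over all genes: Gata4, Gata6, Sox17, Foxa1, Foxa2, Foxa3 and Hhex. The same 7 were lower in the Wnt inhibitor lines (median -5.21). These genes also mark definitive endoderm, of whose list 10 of 12 were lower in both comparisons. In these cells Afp, Ttr and Apom were above background on no array.

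Other secreted genes of the list split in the same lines. Under IWP2 3 of 15 tested were lower: the protease inhibitor Spink1 (log2 -8.99 ± 0.76), the matrix protein vitronectin, Vtn (at least 7.55-fold) and Ambp (at least 2.93-fold). In the Wnt inhibitor lines 4 of 12 were lower, these 3 and Stra6, the receptor that takes retinol from Rbp4 (at least 9.01-fold, adjusted p 0.0324). Vtn was at background on all 4 epiblast arrays, unlike the 9 genes. Fgb, Fgg, Apoa4 and Alb were at background in every EpiSC group. The summed level of visceral endoderm transcription factors was 26.7 to 43.8 on the arrays of the original-protocol lines and 2.19 to 4.72 on the inhibitor-made and treated ones; their part in the Rbp4 result was not tested.

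In mESCs the uptake genes and Apom were present. Apom was at 0.02 and -0.54 in J1 and at -0.63 and -0.53 in R1, and at background on all 12 arrays of the EpiSC groups. Cubn was at -1.75 and -1.67 in J1 and at -1.87 and -1.58 in R1. Amn was at -2.06 and -1.62 in J1 and at -1.49 and -1.77 in R1. Dab2 was at -2.40 and -1.95 in J1 and at -2.07 and -1.89 in R1, below every EpiSC array except BNa17 replicate 1, while Rbp4, at -0.16 to -0.74, did not stand apart from the Wnt inhibitor lines. Afp, Ttr, Apob and Apoa1 were at background on every mESC array.

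Across 5 EpiSC and 2 mESC lines, 4 of 6 tested members were called, 3 lower in EpiSCs and 1 higher, where 25.1% of all tested genes were called, 12.1% lower and 12.9% higher. Apom was at least 8.80-fold lower in EpiSCs (adjusted p 0.0002, limma), and Cubn was lower, with a log2 difference of -2.46 ± 0.34 (adjusted p 0.0019). The EpiSC and mESC ranges of both genes did not overlap. EpiSC and mESC lines lay on different slides, scanned on different days. Cubn was well above background on 3 of 10 EpiSC arrays, and with normexp its difference was -0.65 (adjusted p 0.0136), under the 2-fold needed for a call. Amn and Dab2 were not called with normexp either (-0.34 and 0.69). In the main setting Amn was lower (-1.04 ± 0.33, adjusted p 0.0441) and Dab2 higher (1.30 ± 0.40, adjusted p 0.0384), both with overlapping ranges. Of 7 runs that each left out 1 line, 6 ended the call for Amn, all but the one without 129C1, and 4 ended that for Dab2 (without 129C1, 129Ba2, J1 or R1). Without the dim array BNa17 replicate 1, Amn was no longer called (adjusted p 0.0967). Fibroblast and feeder genes had 0 of 10 called in this comparison, with a median log2 difference of 0.74 and summed levels of 76.3 to 392 in the untreated EpiSC lines and 73.1 to 124 in J1 and R1; their part in the Dab2 difference was not tested. Among the other secreted and uptake genes of the lists, Apoe, Trf, Soat2 and Folr1 were lower in EpiSCs and Serpina1a was higher.

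With 2i, Apom in J1 was at 1.82 and 1.75, Cubn at -2.90 and, at background, -3.46, and Dab2 at background on both arrays, at -4.34 and -4.71. Treated and untreated arrays did not overlap for any of the 3 genes. Dab2 was the 1 of 9 members called, at least 2.33-fold lower with 2i (fitted log2 difference -2.35 ± 0.52, adjusted p 0.0051, limma), where 13% of all tested genes were called and 7% were called lower. Of the 9, Afp, Ttr, Apob and Apoa1 were at background with and without 2i, so their differences could not be measured. With the background correction by normexp Dab2 was not called (-0.42, adjusted p 0.419). Apom was higher by 2.05 ± 0.78 but missed the threshold (adjusted p 0.0643). It was called when E5.5 replicate 2 was left out of the shared spread (adjusted p 0.0054), as was Cubn (-1.47 ± 0.79, adjusted p 0.185 with that array and 0.0371 without). The smallest Cubn difference among the alternatives was -0.38. Amn and Rbp4 differed by 0.42 ± 0.88 and -0.01 ± 0.64.

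Of the endoderm transcription factors, 2 of 10 tested were lower with 2i, Gata6 (at least 4.92-fold) and Foxa2 (log2 -3.89 ± 0.67), and of 15 secreted and lipid transport genes 2 were higher, Apoe by 1.28 ± 0.27 and Serpina1a (at least 2.08-fold). Treated and untreated J1 lay on different slides, scanned on different days, and R1 and J1 also lay on different slides. Between R1 and J1 none of the 9 genes was called. There 0.53% of all tested genes were called, and 0 of 9 had an unadjusted p below 0.05. Of the 9, Afp, Ttr, Apob and Apoa1 were at background in both lines, so their differences could not be measured.

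**Figure D5:**
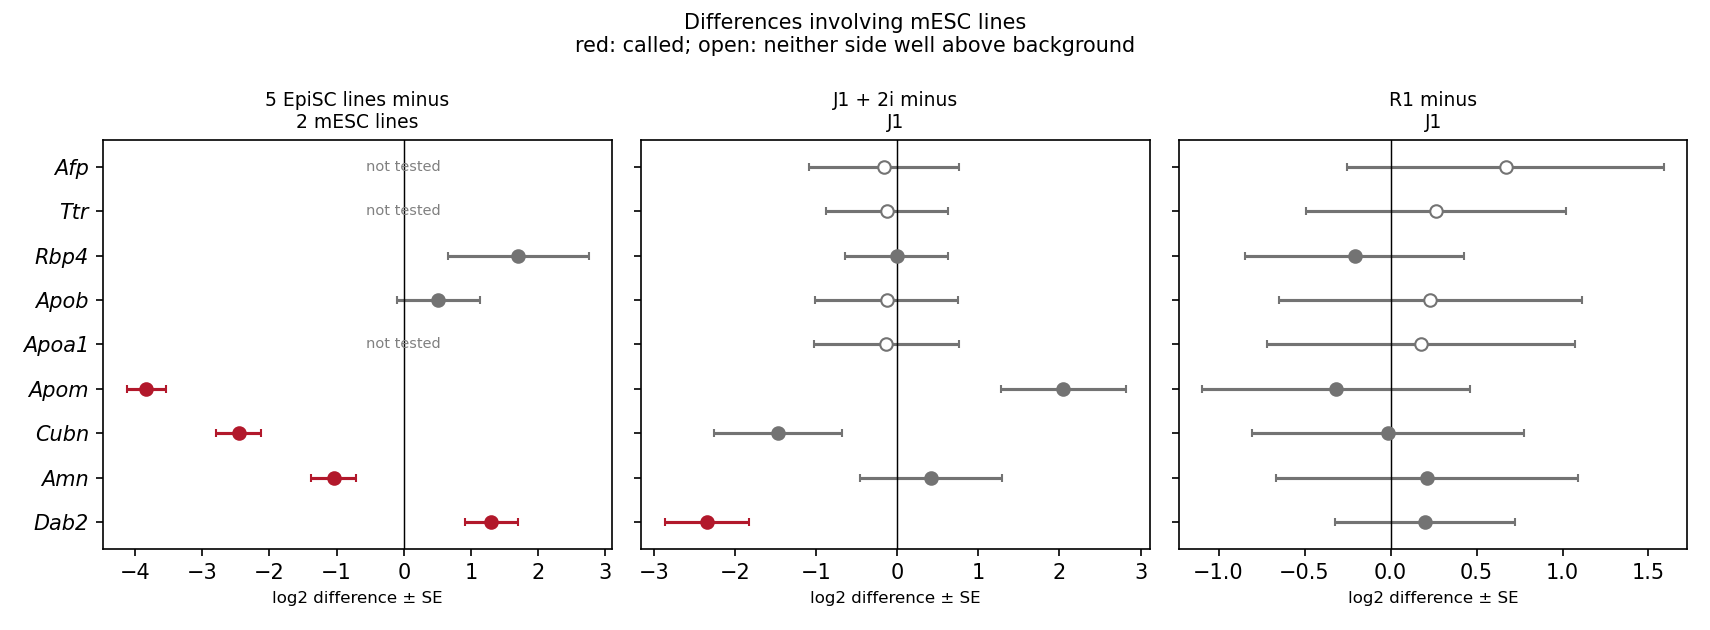
Log2 difference with its standard error (horizontal axis) for each gene (vertical axis) between 5 EpiSC and 2 mESC lines, between J1 with and without 2i, and between R1 and J1. Red points were called: Apom, Cubn, Amn and Dab2 in the first panel, Dab2 in the second and none in the third.

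The order of group means shows how the genes part outside the epiblast. Over the 12 group means, pairs among Afp, Ttr, Apob, Apoa1, Cubn and Amn correlated at Pearson r of 0.79 to 0.96, with a median of 0.89 over 15 pairs. Over the 10 groups other than E5.5 and E6.5 the same pairs ran from -0.25 to 0.75, with a median of 0.14; the highest, 0.75, was that of Apob and Apoa1. Over those 10 groups Apoa1 and Rbp4 correlated at 0.88 and Apom and Amn at 0.80, whereas Apom and Dab2 correlated at -0.82. The group means share the scaling of each array, many lie at background, and no test applies.

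Among the genes most like the 9 together, by Pearson r of group means over 12 groups among 13795 genes, were Reg2 and Fgg (0.98), Fgb, Spry1 (0.97), Pla2g12b, Gc and Muc13 (0.94). All of these were well above background on the 4 epiblast arrays. Reg2 had a mean level of -0.13 at E5.5 and -0.96 at E6.5 and was between -6.32 and -5.27 elsewhere. Gc, the vitamin D carrier of serum, was at -0.04 and -1.87 and otherwise between -5.84 and -4.59. Fgb and Fgg encode chains of fibrinogen. Of these, only Fgg was also among the first 8 by Spearman rank correlation.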

How the data were processed

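RNA of the 12 groups was labelled with Cy3 and hybridised to 24 Agilent arrays. Feature Extraction 10.5.1.1 of Agilent read the scans, per the submitters' processing notes. The authors deposited the scanner output of each array, from which the processed signal was used, a linear intensity per the file headers. They also deposited a table of log2 values. The columns of the deposited log2 table matched their own arrays at r of at least 0.99999 and other arrays at up to 0.796, with a slope of 1.00, after each probe was centred. No genome build is given in the sources used here, so no gene coordinates from the array are printed.

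On the log2 scale each array's 75th percentile was subtracted from the processed signal, control spots and outlier flags were left out, and accessions named 27235 probes through the RefSeq table. A gene was represented by its brightest probe and was tested where both arrays of some group in the fit were well above background. Tests used limma 3.58.1 in R 4.3.3, adjusted over all genes tested. Lines, as means of their arrays, were the replicates between EpiSC types, against mESC lines and against tissue; the other comparisons used 12 groups of 2 arrays. A fold written as at least N-fold has 1 side at background on all its arrays, each of which took the larger of its own value and its lowest signal called well above background. Such a bound, like every adjusted p, comes from the brightest probe. The fits were tested on simulated data.

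The 9 genes were given by name. From the other lists at most 4 called genes per comparison are described with values, besides markers that bear on a result. The most similar genes are the 8 with the highest Pearson r. Members, lists and motifs were chosen with earlier results of these data known. Alternatives covered background correction (normexp, offset 50, on the median spot and background signals), normalization, the deposited table, the filter, probes, variance model, fold minimum, fits of only the groups compared, replicate numbers as a block and leaving out each array or line. Leaving E5.5 replicate 2 out of the shared spread and leaving out BNa17 replicate 1 were chosen after seeing the data.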

Additional observations from a re-analysis of the deposited data

Results flagged for a closer look

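Of 18 groups of 5 or 6 values checked for a value far from the rest, 3 stood apart, and chance gives about 1 in 20. All 3 involve line BNa17 and values at background. Among the 6 arrays of the Wnt inhibitor lines, BNa17 replicate 1 was highest for Afp, at -4.21 against -5.30 for the next array, a gap of 0.6985 of the whole range. The same array was highest for Ttr, at -4.39 against -5.73, a gap of 0.6904 of the range. It is the dimmest array, with a 75th percentile of signal of 69.3, and neither gene was well above background on it. Over the 5 EpiSC line means, BNa17 was lowest for Apom, at -4.96 against -4.11, a gap of 0.8881 of the range.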

How the results depend on the processing

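Of the alternatives to the 12 counts of called members, 153 stayed within 1.5 times the count and 35 did not. No single-gene difference that was called in the main setting changed sign. Rbp4 between E6.5 and E5.5, not called there, was -1.76 without E5.5 replicate 1 and 1.33 without E5.5 replicate 2. For 2i against untreated J1 the count was 1 and became 0 over genes well above background on every array, 2 with a trended and robust variance model, 3 with only the groups compared and 3 with E5.5 replicate 2 out of the shared spread. For E7.5 against E6.5 (8) and EpiSC lines against E5.5 (8) it was 1 and 0 over genes well above background on every array, which leaves few of the genes to test. EpiSC lines against mESC lines (4) gave 1 with normexp, 2 without a filter and 0 over genes above background everywhere. EpiSC lines against E7.5 (0) gave 1 with only the groups compared and 1 without E5.5 replicate 2 in the spread, as did Wt1 against 129C1 (0, then 1 and 1). IWP2 against untreated 129C1 (1) gave 2 and 2 under those settings, and treated 129C1 against Wt1 (1) gave 2 without E5.5 replicate 2. Wnt inhibitor lines against 129C1 (2) gave 1 with normexp and 1 over genes above background everywhere. Normexp with its offset compresses dim signals; other causes were not tested.

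Leaving out 1 array or line gave counts of 0 to 6 for E6.5 against E5.5, 6 to 7 for E7.5 against E6.5, 6 to 8 for EpiSC lines against E5.5, 2 to 3 for EpiSC against mESC lines, 1 to 2 for Wnt inhibitor lines against 129C1, 0 to 1 for Wnt inhibitor against original-protocol lines, and 0 to 0 for both IWP2 comparisons. A lone remaining array or line is assumed to vary like the other groups. Over all genes normexp changed the count of calls by 1.85 to 3.21 times in 11 of 12 comparisons (2243 to 869 for E7.5 against E6.5), and counting without a fold minimum by 1.62 to 2.31 times in 8. For Wnt inhibitor against original-protocol lines 222 calls became 40 without 129Ba2, 42 without BNa17, 87 without 129Ba1 and 622 without 129C1. For R1 against J1, 80 became 220 without R1 replicate 1.

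The groups share replicate numbers, but nothing in the labels pairs them: same-numbered arrays deviated together at r of -0.19 to 0.42. With the replicate number as a block the counts stayed at 8 for E7.5 against E6.5, 2 for Wnt inhibitor lines against 129C1 and 1 each for 2i, IWP2 and treated 129C1 against Wt1. Each group lies on 1 slide, so slide as a random block could not be fitted. The 2 arrays a group limit the precision, and differences between groups at background could not be measured.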
